A study of Homo sapiens with 12 samples.

Results

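The 10 genes described here encode the transcription factor NRF2 (NFE2L2), its inhibitor KEAP1, and 8 genes that NRF2 is known to switch on: GCLC, GCLM, SLC7A11, TXNRD1, SRXN1, NQO1, HMOX1 and OSGIN1. They were taken by name as 10 of the 26364 genes in the count table, and 10 of the 10 passed the low-count filter that left 13852 genes for testing. The samples were cultures of HepG2, a cell line derived from a human liver cancer and used as a stand-in for hepatocytes. Total RNA was sequenced from untreated cells (0 min) and from cells given insulin for 5, 10, 30 or 240 min, with 2 libraries per time and no other genotype or agent. The times came from the sample titles, since the treatment text reads 3 nM and 5 min for every RNA library, the 0 min libraries included, and the dose of the time course is therefore uncertain. For the RNA libraries, cells had been kept for 16 h in EMEM medium before insulin. The labels do not say that replicates were separate cultures, and the paper states only that RNA-seq was done once on biologically independent samples. The p-values below therefore measure only the spread between these libraries. A ChIP-seq library of the insulin receptor (IR) in HepG2, with no replicate and labelled only as stimulated with 3 nM insulin, gave a list of bound regions.

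NRF2 is a basic leucine zipper protein that, in resting cells, is held by KEAP1 and passed to a CUL3 ubiquitin ligase for destruction. Oxidants and electrophiles modify KEAP1, so that NRF2 accumulates, pairs with a small MAF protein and binds antioxidant response elements beside its target genes. Phosphorylation steps outside this loop also act on NRF2. In liver, those targets supply glutathione, reduce thioredoxin and detoxify quinones and heme. NRF2 is controlled largely at the level of its protein, which RNA sequencing does not measure.

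The 10 RNA libraries held between 18347109 and 45005769 counts assigned to genes, and the 2 libraries of each time differed beyond counting noise (chi-square per degree of freedom 2.86 to 6.47). ERCC spike-ins, synthetic RNAs added as a reference, took 1.59% to 2.36% of counts, with the highest share in 10 min replicate 2. All 8 hepatocyte markers were measured, with a summed level of 63641 to 79054 CPM (counts scaled to a common library total with TMM factors) across libraries. HNF4A, a hepatocyte transcription factor, was the only one called at 240 min (log2 fold change 0.30), a call lost with spike-in scaling (0.18). Only 2 of the 8 changes were positive at that time, with a median of -0.10. Dropping replicate 1 of 240 min moved this median to -0.21, whereas dropping replicate 2 turned it positive (0.05). ALB had -0.29 (SE 0.12) and was not called, with 18563 and 13892 CPM in the 240 min libraries. Of 8 markers of other cell types, 6 passed the filter. The leukocyte gene PTPRC was at 0 counts in every library. The summed level of the list was 365 to 508 CPM, most of it from KRT19, a bile duct marker, at 304 to 455 CPM. ACTA2 was the only marker called at 240 min (-0.30), a call lost without 0 min replicate 2, with spike-in scaling (-0.41) and with limma.

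After 240 min of insulin, 7 of the 10 mRNAs rose and 0 fell, whereas 0 of 10 passed the test at 5, 10 or 30 min. The series holds no untreated library at 240 min, so insulin and time in culture cannot be told apart. SRXN1 and OSGIN1 rose by 2.15- and 2.13-fold, HMOX1, TXNRD1 and GCLM rose by 1.83-, 1.63- and 1.56-fold, and GCLC and NFE2L2 rose by 1.17- and 1.13-fold. NQO1, SLC7A11 and KEAP1 did not pass the test. At that time 41% of all tested genes were called (edgeR quasi-likelihood test, adjusted p under 0.05) and 20.6% were called higher, against 7 of 10 here. The median log2 fold change was 0.43 over the 10 genes and -0.0026 over all tested genes. The 10 genes were chosen with earlier results of these data known, so these contrasts are descriptions and not tests. In bulk RNA, fewer cells of a type and less RNA per cell cannot be told apart. CPM levels, given for each library below, compare 1 gene between libraries.

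**Figure D1:**
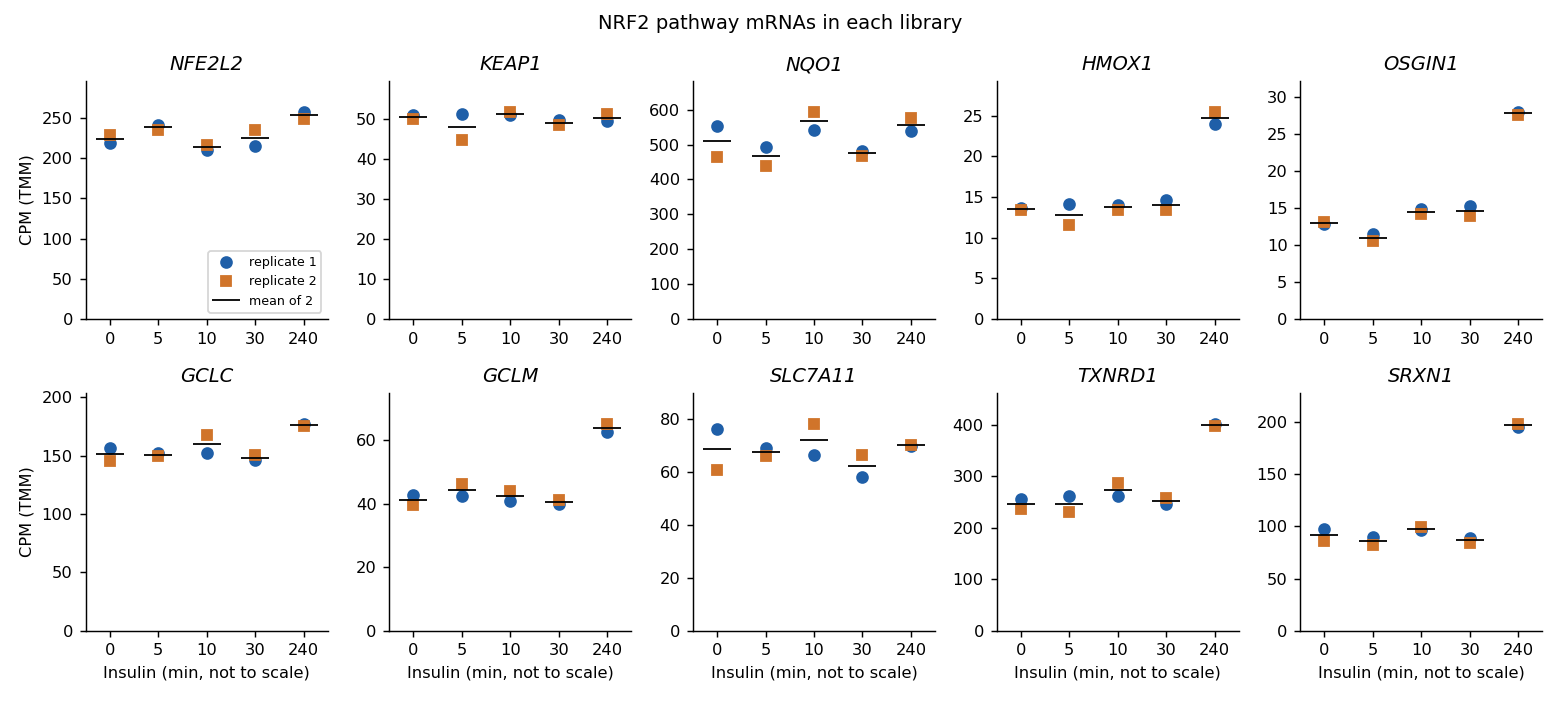
Level of each of the 10 mRNAs in CPM after TMM scaling (vertical axis, from 0) by minutes of insulin (horizontal axis, evenly spaced and not to scale), with a circle for replicate 1, a square for replicate 2 and a line for their mean. In SRXN1, OSGIN1, HMOX1, TXNRD1, GCLM, GCLC and NFE2L2 both 240 min points sit above all 8 earlier ones.

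The regulators come first. NFE2L2 (chr2:178095031-178129859, minus strand, hg19) encodes NRF2 itself. Its level was 219 and 228 CPM untreated, 241 and 234 (5 min), 210.3 and 216 (10 min), 215 and 234 (30 min), then 257 and 249 after 240 min. Both 240 min libraries lay above all earlier ones, with 5 min replicate 1 the closest. The rise over 0 min was 0.18 on the log2 scale (SE 0.051, adjusted p 0.00845). It was small, and the call was lost when either 0 min replicate 1 (0.15, adjusted p 0.0821) or 240 min replicate 1 (0.15, adjusted p 0.0726) was left out.

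KEAP1 (chr19:10596796-10614054, minus strand) encodes the adaptor that captures NRF2 for degradation. It had 50.9 and 49.8 CPM untreated, 51.2 and 44.7 (5 min), 50.8 and 51.7 (10 min), 49.6 and 48.4 (30 min), then 49.4 and 51.1 after 240 min. The groups overlapped and 5 min replicate 2 was the low library. The difference at 240 min was -0.0030 (SE 0.062, adjusted p 0.973), and its sign turned with the scaling.

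Next come the genes of glutathione supply. GCLC (chr6:53362140-53409927, minus strand) encodes the catalytic subunit of glutamate-cysteine ligase, the rate-limiting enzyme of glutathione synthesis. GCLC stood at 157 and 146 CPM untreated, 152 and 150.1 (5 min), 152 and 168 (10 min), 146 and 151 (30 min), then 177 and 176 after 240 min. Both 240 min libraries exceeded the 8 earlier ones, though 10 min replicate 2 came near. The log2 fold change at 240 min was 0.22 (SE 0.053, adjusted p 0.00216), and without 0 min replicate 2 it was 0.17 (adjusted p 0.0634).

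GCLM (chr1:94350756-94375154, minus strand) encodes the modifier subunit of the same ligase. GCLM had 42.8 and 39.6 CPM untreated, 42.3 and 46.2 (5 min), 40.7 and 44 (10 min), 39.8 and 41.0 (30 min), then 62.6 and 65.1 after 240 min. The 240 min libraries were clear of all others. The rise over 0 min was 0.64 (SE 0.063, adjusted p 1.89e-07), beside 0.22 for GCLC. Per length, in TPM, GCLM stood at 0.195 to 0.231 of GCLC in the 8 earlier libraries and at 0.262 and 0.279 at 240 min. This ratio is free of library scaling and is given as a description, with no test.

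SLC7A11 (chr4:139085248-139163503, minus strand) encodes the cystine carrier that feeds glutathione synthesis. It measured 76.3 and 60.6 CPM untreated, 69.1 and 66.0 (5 min), 66.2 and 78.2 (10 min), 57.9 and 66.2 (30 min), then 69.9 and 70.3 after 240 min. The 0 min pair alone spanned both 240 min values. The difference at 240 min was 0.05 (SE 0.090, adjusted p 0.686), and it was -0.12 without 0 min replicate 2. SLC3A2, which encodes the partner chain of this carrier, rose by 0.34 (adjusted p 3.59e-04).

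The thioredoxin genes come next. SRXN1 (chr20:627268-634014, minus strand) encodes sulfiredoxin, which returns over-oxidized peroxiredoxins to work. SRXN1 had 97.8 and 86.1 CPM untreated, 89.9 and 82.6 (5 min), 96.1 and 99.9 (10 min), 88.9 and 84.4 (30 min), then 195 and 198 after 240 min. The 8 earlier libraries formed a narrow band and the 240 min pair stood far above it. The log2 fold change was 1.10 (SE 0.059, adjusted p 6.87e-11). Among the 10388 tested genes averaging 5 CPM or more, SRXN1 ranked 18 by log2 fold change, and its value was within 1 SE of that of OSGIN1.

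TXNRD1 (chr12:104609557-104744085, plus strand) encodes the cytosolic thioredoxin reductase. TXNRD1 had 257 and 236 CPM untreated, 261 and 230.3 (5 min), 261 and 286 (10 min), 246 and 257 (30 min), then 402 and 397 after 240 min. The 240 min libraries did not overlap any other. The rise was 0.70 (SE 0.061, adjusted p 4.59e-08). Relative to TXN, the thioredoxin it reduces, TXNRD1 stood at 0.366 to 0.424 in TPM in the earlier libraries and at 0.627 and 0.563 at 240 min.

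NQO1 (chr16:69743304-69760571, minus strand) encodes a quinone reductase often used as a readout of NRF2. NQO1 measured 554 and 465 CPM untreated, 494 and 438 (5 min), 541 and 593 (10 min), 482 and 467 (30 min), then 539.8 and 575 after 240 min. The highest library was at 10 min and the 0 min pair overlapped the 240 min pair. Against 0 min the difference was 0.13 (SE 0.072, adjusted p 0.162), and without 0 min replicate 1 it was 0.26 (adjusted p 0.0126). The TPM ratio of SRXN1 to NQO1 was 0.157 to 0.175 in the earlier libraries and 0.336 and 0.326 at 240 min, with no test of the difference.

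HMOX1 (chr22:35777060-35790207, plus strand) encodes heme oxygenase 1, which opens heme and releases iron and biliverdin. Its level was 13.6 and 13.4 CPM untreated, 14.1 and 11.6 (5 min), 14 and 13.4 (10 min), 14.7 and 13.4 (30 min), then 24.0 and 25.5 after 240 min. The 240 min pair was clear of the rest. The rise was 0.87 (SE 0.091, adjusted p 4.57e-07), resting on 242 to 601 counts per library, and HMOX1 ranked 69 of the same 10388 genes.

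OSGIN1 (chr16:83986827-83999937, plus strand) encodes an oxidative stress-induced growth inhibitor. OSGIN1 had 12.9 and 13.1 CPM untreated, 11.5 and 10.5 (5 min), 14.8 and 14.2 (10 min), 15.3 and 13.9 (30 min), then 27.9 and 27.6 after 240 min. The 240 min pair stood apart and the 5 min pair was the lowest. The log2 fold change at 240 min was 1.09 (SE 0.082, adjusted p 6.89e-09), with counts of 219 to 699 per library and rank 21.

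Both 240 min libraries lay above both 0 min libraries in 7 of the 10 genes, against 34.8% of all tested genes, and above all 8 earlier libraries in the same 7, against 23.4%. Spike-in scaling bears on this count. It lowered the median of all tested genes at 240 min by 0.12, widened the errors, and left 4 of the 10 called (SRXN1, OSGIN1, HMOX1 and TXNRD1), with 1059 genes called in all (331 higher and 728 lower, against 2847 and 2829 as reported). Under it GCLM had 0.51 (adjusted p 0.0714), GCLC 0.10 and NFE2L2 0.06.

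**Figure D2:**
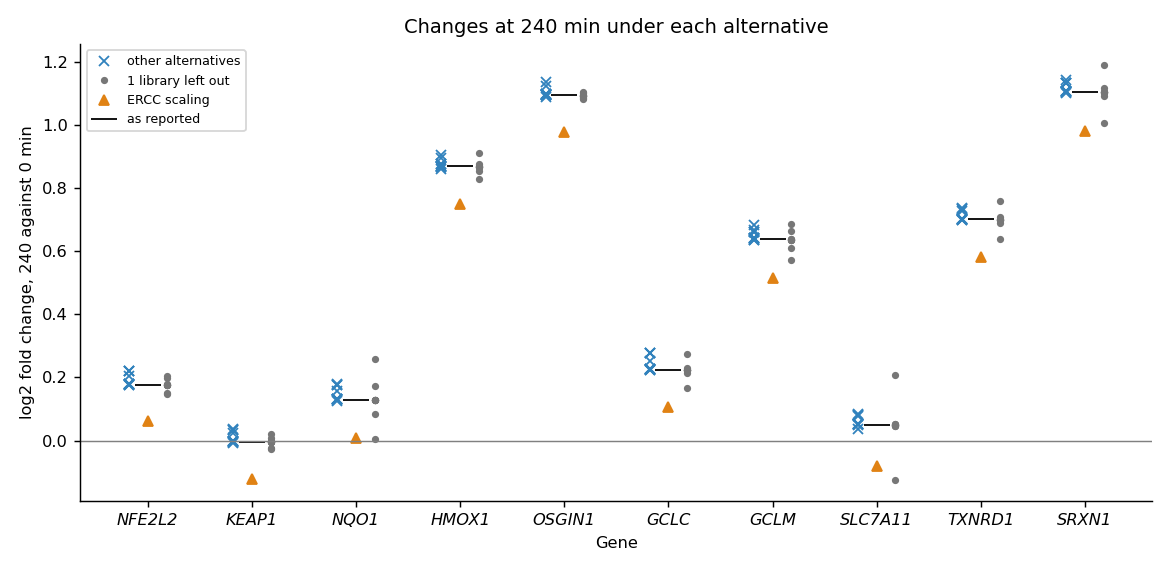
Log2 fold change at 240 min against 0 min (vertical axis) for each of the 10 genes (horizontal axis) as reported (line), with 1 library left out (dots), with ERCC scaling (triangles) and under the other alternatives (crosses). SRXN1, OSGIN1, HMOX1, TXNRD1 and GCLM stay above 0.5 under every alternative drawn, while KEAP1 and SLC7A11 fall on both sides of 0.

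Between 30 and 240 min, 8 of 10 genes rose and 0 fell, where 38.2% of tested genes were called and 19.8% called higher. The 8 were the 7 above and NQO1 (0.23, SE 0.072, adjusted p 0.0158). The differences were 1.18 for SRXN1 (SE 0.060), followed by OSGIN1 (0.92, SE 0.083) and HMOX1 (0.81, SE 0.094). SLC7A11 differed by 0.18 (adjusted p 0.130) and KEAP1 by 0.04 (adjusted p 0.703). The SLC7A11 groups did not overlap, but 0 min replicate 1 (76.3 CPM) and 10 min replicate 2 (78.2 CPM) exceeded both 240 min libraries. The NQO1 call was lost with DESeq2 (0.23, adjusted p 0.0971), with limma on log2(TPM + 1) (0.25, adjusted p 0.135), without 30 min replicate 2 (0.21, adjusted p 0.0865) and without 240 min replicate 2 (0.19, adjusted p 0.105). The NFE2L2 call was lost without 30 min replicate 1 (0.11, adjusted p 0.174) and without 240 min replicate 1 (0.15, adjusted p 0.0857). In the test of any difference between the 5 times, 8 of 10 genes passed, all but KEAP1 and SLC7A11, against 38.3% of tested genes.

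No early change passed the test. At 5 min 0 of 10 genes were called, as were 0% of all tested genes. OSGIN1 was the only one of the 10 with an unadjusted p under 0.05 at 5 min (-0.24, SE 0.092, adjusted p 0.281), where 14.3% of all tested genes had one. Both 5 min libraries of OSGIN1 lay below both 0 min libraries, while both 10 min and both 30 min libraries lay above them. The share of all genes with groups apart at these times is not given here, so this is a description only. At 10 min 0 of 10 were called (0.137% of all genes), and NQO1 (0.16, adjusted p 0.951) and TXNRD1 (0.15, adjusted p 0.822) had an unadjusted p under 0.05. At 30 min 0 of 10 were called (0.332% of all genes) and 0 had an unadjusted p under 0.05. From 10 to 30 min 0 of 10 were called (0.00722% of all genes). In that comparison NQO1 (-0.26), SRXN1 (-0.18) and SLC7A11 (-0.22) had an unadjusted p under 0.05 and an adjusted p of 0.997. Every median of the 10 genes at the early times was small, at -0.03 at 5 min, 0.09 at 10 min and -0.02 at 30 min. Spike-in scaling moved the median of all genes by -0.33 at 10 min and turned the 10 min values of NQO1 and TXNRD1 negative (-0.18 for each).

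**Figure D3:**
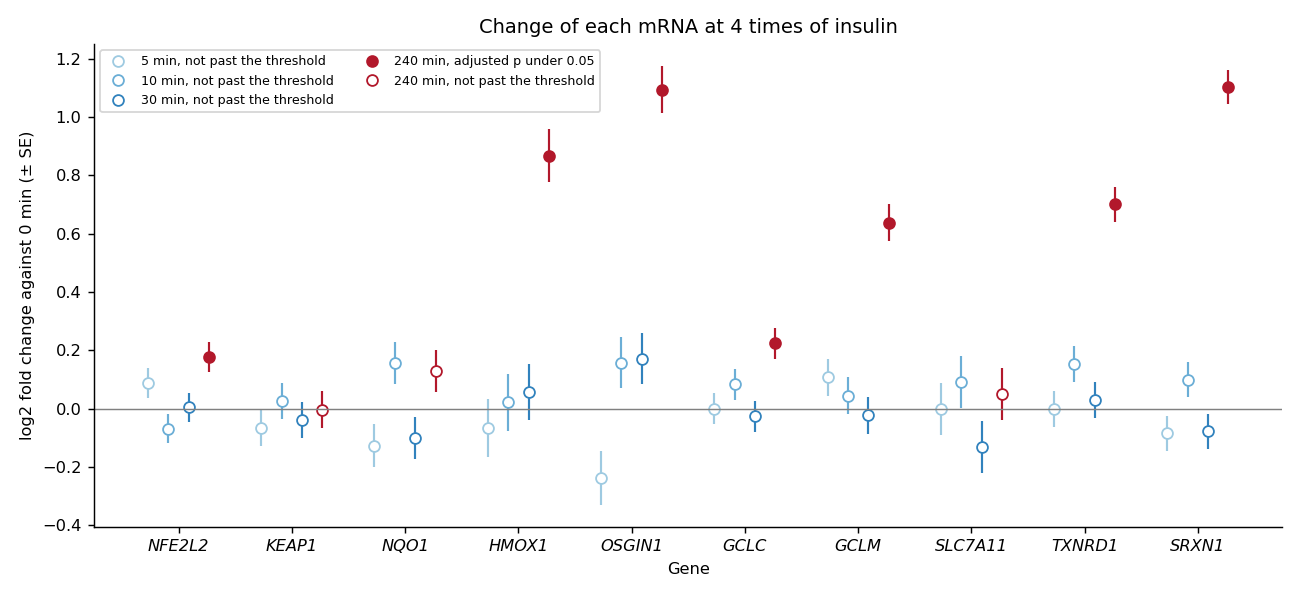
Log2 fold change against 0 min (vertical axis, bars ± SE from edgeR, 2 libraries per time) for each gene (horizontal axis) at 5, 10, 30 and 240 min, filled where the adjusted p was under 0.05. Filled points occur at 240 min in 7 of the 10 genes, and every point at 5, 10 and 30 min is open.

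Levels can be set against each other per length, in TPM. NQO1 was the most abundant of the 10 mRNAs, with a mean of 509 TPM over the 10 libraries (SD 51.6), above NFE2L2 in 10 of 10 libraries. NFE2L2 averaged 203 TPM and TXNRD1 175, in that order in 8 of 10 libraries, the exceptions being the 240 min pair, where TXNRD1 had 254 and 249.95 TPM and NFE2L2 226 in both. SRXN1 and GCLC had the same mean of 104 TPM, but SRXN1 exceeded GCLC only in the 2 libraries of 240 min. KEAP1 averaged 48.1 TPM and lay below GCLC and above HMOX1 in 10 of 10 libraries. HMOX1 (24.8), GCLM (22.9), OSGIN1 (20.7) and SLC7A11 (17.6) closed the order, and their neighbors changed places between libraries. OSGIN1 exceeded SLC7A11 in 6 of 10.

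**Figure D4:**
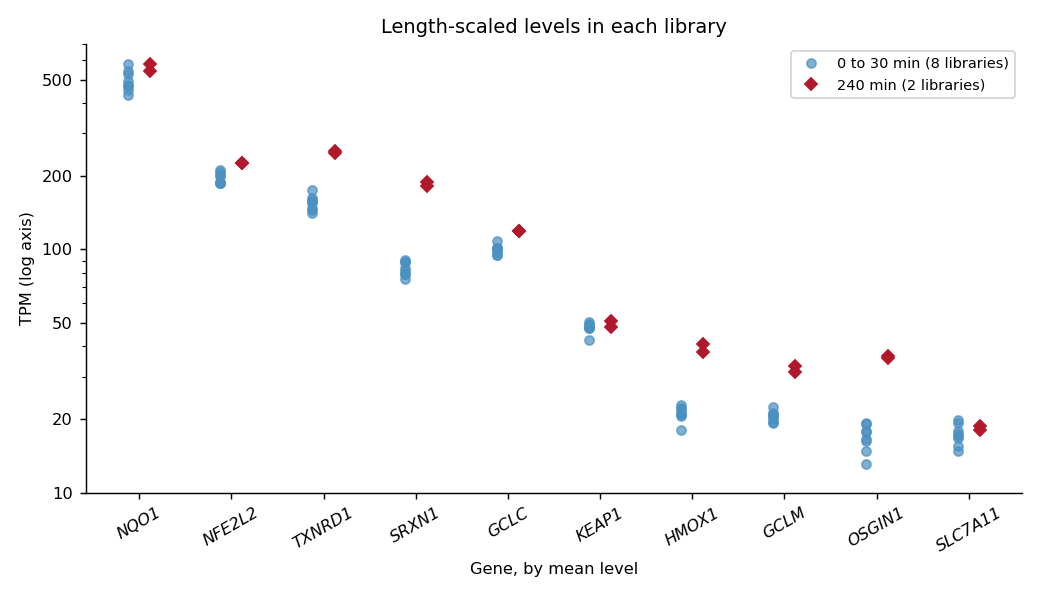
Level per length in TPM (vertical axis, log scale) of the 10 genes, ordered by mean level, with circles for the 8 libraries of 0 to 30 min and diamonds for the 2 of 240 min. The diamonds of SRXN1 (182 and 189 TPM) lie above those of GCLC (119 in both), while its circles lie below those of GCLC.

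The genes whose profile over the 10 libraries differed least from that of SRXN1, which had the smallest p of the 10 in the test over all times, were HMGCS1, CD3EAP, STC2, NOCT and IDI1. The mean absolute difference of centered log2 CPM was 0.060 for HMGCS1 and 0.071 for IDI1, out of 10387 genes. Being chosen for this likeness, they had log2 fold changes close to that of SRXN1 at 240 min, 1.14 for HMGCS1, 1.01 for CD3EAP, 1.10 for STC2, 1.08 for NOCT and 0.91 for IDI1.

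Other genes of the pathway are given by list, beside all tested genes, of which 41% were called at 240 min, 20.6% higher (2847 of 13852) and a like number lower (2829). Among 28 tested of 31 other NRF2 target genes 12 were called, a share near that of all genes, of which 6 rose and 6 fell, with a median of -0.037. GSR, glutathione reductase, rose from 176 ± 12 to 235 ± 0.423 CPM (SD, n = 2), a log2 fold change of 0.42. ABCC4, an efflux pump, rose by 0.41, and UGDH, which makes the sugar donor for glucuronidation, by 0.36. AKR1C1 (-0.53) and AKR1C3 (-0.43), aldo-keto reductases whose near-identical family members can share reads, fell, as did ABCC2 (-0.25), a bile canalicular pump.

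Genes that act on NRF2 or pair with it gave 7 calls among 16 tested, also near the 41% of all genes, with 2 rises, 5 falls and a median of -0.11. CUL3, the scaffold of the KEAP1 ligase, had 0.16, a call lost without 0 min replicate 2 (0.13, adjusted p 0.179), without 240 min replicate 1 (0.13, adjusted p 0.141) and with limma on log2(TPM + 1) (adjusted p 0.055). PALB2, a DNA repair protein that can bind KEAP1, rose by 0.45. SYVN1, a ubiquitin ligase of the endoplasmic reticulum that targets NRF2, fell from 54.4 ± 0.562 to 38.5 ± 1.04 CPM (SD, n = 2), a change of -0.50. The coactivators CREBBP (-0.31) and EP300 (-0.24) fell.

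Of 15 tested of 16 glutathione enzyme genes 10 were called, against 41% of all genes, of which 5 rose and 5 fell. The risers included GSR, SLC3A2 and GGCT (0.44, and 0.29 without 0 min replicate 2). The falls named by the rule were less firm. GGT1 (-0.26) had -0.12 without 0 min replicate 2 (adjusted p 0.514) and was not called with DESeq2 (adjusted p 0.124) or with either 240 min library left out. OPLAH (-0.27) was not called with DESeq2 (adjusted p 0.060), without 0 min replicate 1 (adjusted p 0.145) or without 240 min replicate 1 (adjusted p 0.179). GLRX (-0.35) had -0.23 without 240 min replicate 1 (adjusted p 0.063), and limma on log2(TPM + 1) called none of these 3. CHAC2, which degrades glutathione, had 1.03 at a mean of 4.9 CPM and is named after its value was seen. Of 14 thioredoxin and peroxiredoxin genes 3 were called, 1 higher (TXNRD3, 0.38) and 2 lower, beside the same 41%. The TXNRD3 call was lost without 0 min replicate 2 (adjusted p 0.053) or 240 min replicate 1 (adjusted p 0.055), and that of NXN (-0.23) without 240 min replicate 1 (adjusted p 0.063). TXNIP, an inhibitor of thioredoxin, fell from 270.2 ± 12.1 to 167 ± 18 CPM (SD, n = 2), a change of -0.70. Of 8 tested of 11 superoxide and peroxide enzyme genes 0 were called higher and 2 lower, catalase (CAT, -0.26) and mitochondrial superoxide dismutase (SOD2, -0.14). The SOD2 call was lost without 0 min replicate 1 (adjusted p 0.073), 0 min replicate 2 (adjusted p 0.095) or 240 min replicate 2 (adjusted p 0.175), with upper-quartile scaling (adjusted p 0.065) and with limma. Of 10 heme genes 5 were called, 4 higher and 1 lower. FECH (0.50) and ALAS1 (0.36), the last and first enzymes of heme synthesis, were higher, as was HMOX2 (0.25), whose call was lost without 0 min replicate 2 (adjusted p 0.070) and with limma. The lower one was FTL (-0.18), whose reads pseudogenes can share, and it rested on 0 min replicate 1, without which it had -0.064 (adjusted p 0.530). The FTL call was also lost with DESeq2 (adjusted p 0.126), upper-quartile scaling, limma, a fit of the 2 times alone, or either 10 min or 240 min library left out. The lists overlap, since GSR, TXN, PRDX1, BLVRB, FTL and FTH1 each stood in more than 1 of them. Whether the share called in any list differed from that of all genes was not tested. In these lists, as in the 10 genes, 0 genes were called at 5, 10 or 30 min. With spike-in scaling, 1 gene of these 6 lists was called higher at 240 min (CHAC2, 0.91, adjusted p 0.00361) and AKR1C1, AKR1C3, SYVN1 and TXNIP were still lower.

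**Figure D5:**
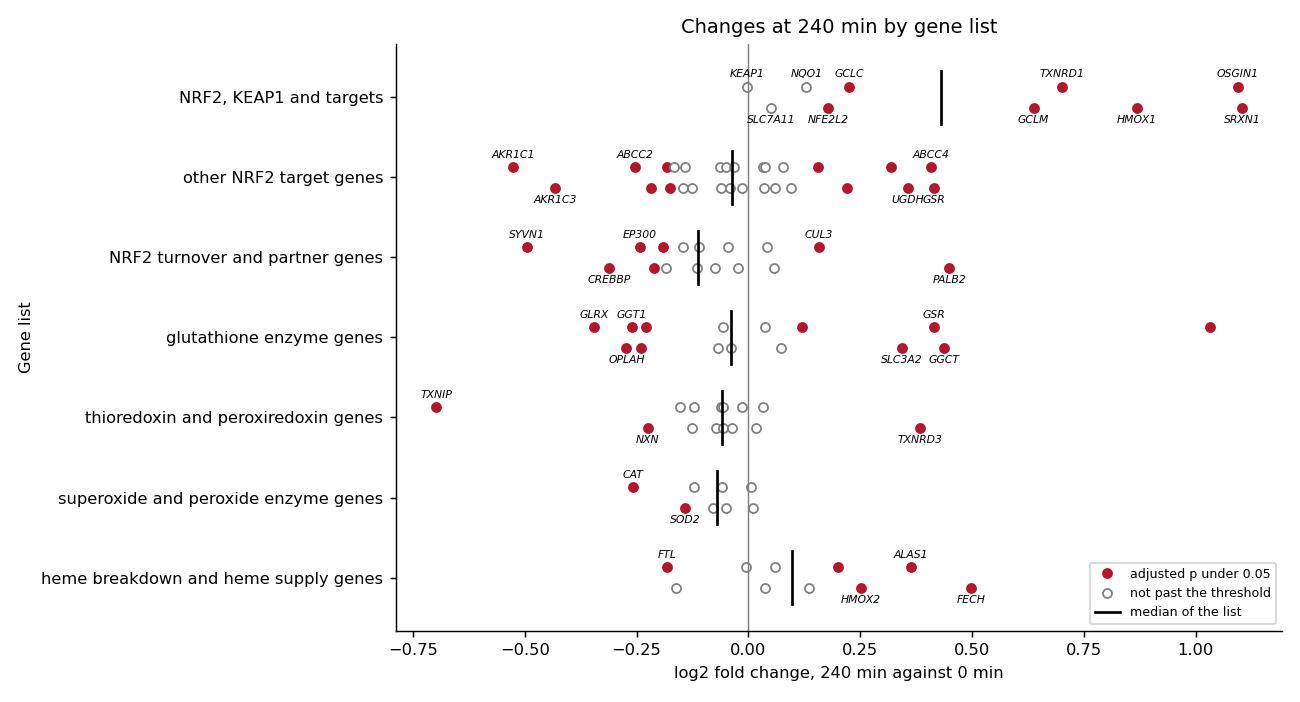
Log2 fold change at 240 min against 0 min (horizontal axis) of every tested gene in each list (vertical axis), filled where the adjusted p was under 0.05, with a line at the median of each list. The median of the 10 genes is 0.43, and the medians of the other 6 lists lie between -0.11 and 0.10. The 10 genes and the lists were chosen with earlier results of these data known.

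The promoter sequences were searched for the core of the antioxidant response element, written TGACNNNGC, on both strands. RefSeq windows from 250 bases before to 50 bases after a start site (GRCh38.p14) matched 8 of the 10 genes with 11 windows. HMOX1 and SLC7A11 did not match. The core occurred in 4 of the 11 windows, against 13.3% of all 35116 windows. These 4 belonged to 3 genes, GCLM, TXNRD1 and KEAP1, and a match is a description of letters, not a bound site. The AP-1 motif TGANTCA, which can overlap the core, overlapped none of these matches. It occurred in 1 window, that of OSGIN1, against 7.71% of all windows. GCLM and TXNRD1 are shown because they rose and held the core, KEAP1 because it held the core and its mRNA did not pass the test, and SRXN1 because it rose with no match in this window. Capitals mark the core or its reverse complement. The windows run 5′ to 3′ along the gene and lie at chr1:93909381-93909680 (minus strand), chr12:104215529-104215828 (plus strand) and chr12:104286782-104287081 (plus strand), chr19:10502722-10503021 (minus strand) and chr20:653151-653450 (minus strand).
GCLM: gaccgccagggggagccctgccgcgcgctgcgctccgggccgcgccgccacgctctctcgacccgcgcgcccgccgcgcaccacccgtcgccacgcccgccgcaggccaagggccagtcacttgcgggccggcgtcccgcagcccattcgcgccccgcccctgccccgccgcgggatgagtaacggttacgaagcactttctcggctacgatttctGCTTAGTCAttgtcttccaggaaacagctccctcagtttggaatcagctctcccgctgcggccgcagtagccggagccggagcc
TXNRD1, first window: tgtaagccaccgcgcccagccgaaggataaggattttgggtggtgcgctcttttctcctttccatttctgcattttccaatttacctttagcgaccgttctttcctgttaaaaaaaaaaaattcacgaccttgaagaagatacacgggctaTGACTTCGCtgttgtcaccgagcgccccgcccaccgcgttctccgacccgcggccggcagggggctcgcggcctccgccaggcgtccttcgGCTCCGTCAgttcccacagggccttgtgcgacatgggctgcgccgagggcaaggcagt
TXNRD1, second window: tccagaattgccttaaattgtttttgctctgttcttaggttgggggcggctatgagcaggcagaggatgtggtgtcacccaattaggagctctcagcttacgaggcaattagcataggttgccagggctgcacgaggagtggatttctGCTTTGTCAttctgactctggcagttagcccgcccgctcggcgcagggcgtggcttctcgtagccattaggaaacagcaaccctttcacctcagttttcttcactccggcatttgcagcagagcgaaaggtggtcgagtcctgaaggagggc
KEAP1: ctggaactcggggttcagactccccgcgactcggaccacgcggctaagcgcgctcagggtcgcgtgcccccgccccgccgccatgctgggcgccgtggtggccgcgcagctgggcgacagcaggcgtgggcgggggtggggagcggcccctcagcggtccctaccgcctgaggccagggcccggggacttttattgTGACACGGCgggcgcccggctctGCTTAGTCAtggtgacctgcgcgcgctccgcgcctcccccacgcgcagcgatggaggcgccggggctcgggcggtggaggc
SRXN1: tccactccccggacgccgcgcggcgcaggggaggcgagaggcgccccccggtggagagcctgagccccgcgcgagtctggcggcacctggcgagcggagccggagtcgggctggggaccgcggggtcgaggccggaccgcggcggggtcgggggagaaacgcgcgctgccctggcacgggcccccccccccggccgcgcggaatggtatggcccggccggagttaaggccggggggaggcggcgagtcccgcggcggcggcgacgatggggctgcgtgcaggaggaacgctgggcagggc

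The match of GCLM began 34 bases before the start site and that of KEAP1 closest to its start 31 bases before it, and both read gcttagtca along the gene, TGACTAAGC on the other strand. In TXNRD1 a match lay 99 bases before the first start site and another ended at it, and a match of the second window lay 102 bases before its start. No match fell in the windows of NFE2L2, NQO1, GCLC, OSGIN1 or SRXN1, or in the other KEAP1 window (chr19:10503307-10503606). This says only that these letters are not within 250 bases before or 50 after those starts.

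IR binding was read from the 1971 peaks of the ChIP-seq library. Of the 10 genes 1, NFE2L2, had a peak within 5 kb of its gene body, against 15.7% of the tested genes, a share no higher than the background. That peak spanned chr2:178129543-178129979 (hg19, 437 bases) and covered the 5′ end of NFE2L2, 178129859, in the gene coordinates that the authors deposited. In the GENCODE annotation no start site and no exon lay in it. It fell within introns of 30 longer NFE2L2 transcripts and of 1 transcript of ENSG00000222043 on the plus strand, and 28 bases upstream of the nearest NFE2L2 start site, at 178129515, with 12 of 65 NFE2L2 start sites within 150 bases. Its score of 58 ranked 1211 and lay below the median of 79, and HOMER gave its nearest gene as AC079305.10, not NFE2L2. The nearest peaks of the other 9 genes lay 123 to 5090 kb from their 5′ ends. The central 300 bases, chr2:178129612-178129911 on the plus strand of GRCh37, are shown in lower case because they are the bound region nearest to any of the 10 genes, with 59.3% G and C.
NFE2L2 peak: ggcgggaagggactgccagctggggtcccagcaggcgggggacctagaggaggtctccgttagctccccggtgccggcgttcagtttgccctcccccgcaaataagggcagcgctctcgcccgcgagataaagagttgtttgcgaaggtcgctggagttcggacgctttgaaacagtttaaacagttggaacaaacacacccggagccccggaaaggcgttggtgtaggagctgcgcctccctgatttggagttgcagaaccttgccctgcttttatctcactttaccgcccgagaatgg

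The whole NFE2L2 peak held no TGACNNNGC and no TGANTCA, against 11% and 3.4% of the central 300 bases of all 1971 peaks. The NFE2L2 RefSeq window at chr2:177264678-177264977 (GRCh38.p14) shares 163 bases with the peak. With 1 library and no replicate, binding at NFE2L2 was not compared with the RNA levels.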

How the data were processed

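Per the labels, HepG2 RNA was sequenced as 10 libraries, 2 each at 0, 5, 10, 30 and 240 min of insulin. The authors trimmed reads with Trim Galore 0.6.4, aligned them to hg19 with STAR 2.6.1d and deposited raw counts per gene from featureCounts 1.6.4, with 92 ERCC rows. The deposited TPM values came from StringTie, whose version is not given in the sources used here, and they keep no depth. For ChIP-seq the authors used BWA 0.7.17-r1188, MACS2 2.2.7.1 and HOMER, and the deposited peak score is as MACS2 wrote it.

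Counts were tested with edgeR 4.0.16 (R 4.3.3), using TMM scaling, filterByExpr and 1 quasi-likelihood fit over the 10 libraries with time as the only term. Benjamini-Hochberg adjustment ran over all 13852 genes tested, at a threshold of 0.05, for 6 comparisons of 2 times and 1 test over all times. Rows of the spike-ins stayed out of library sizes and tests. The test was checked on data with known answers before use. The alternatives were DESeq2 1.42.0, RLE, upper-quartile and ERCC scaling, no filter, a minimum of 10 counts in every library, a replicate block, a fit of the 2 times alone, each library left out in turn, and limma 3.58.1 on TPM with a pseudocount of 1 or 0.1 before log2, or only for genes averaging a TPM of 1 or more. Peaks were matched to StringTie gene bodies extended by 5 kb, or by 1 and 20 kb. Promoter sequences are RefSeq windows on GRCh38.p14, and the peak sequence was read from GRCh37. Figures were drawn in Python 3.11.15.

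The 10 genes and the context lists (other NRF2 targets, NRF2 turnover and partners, glutathione, thioredoxin and peroxiredoxin, superoxide and peroxide, heme, hepatocyte markers, markers of other cell types) were chosen with earlier results of these data known. All 10 genes are named, and in each list up to 3 called rises and 3 called falls at 240 min with a mean of at least 5 CPM. The 5 genes most like SRXN1 were named by their profile.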

Additional observations from a re-analysis of the deposited data

How the results depend on the processing

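At 240 against 0 min the count of called genes was 4 to 8 of 10 over all alternatives and 6 to 7 with 1 library left out. Against 30 min it was 5 to 9, and 7 to 8 with 1 library left out, and over all times it was 5 to 9, and 7 to 8 with 1 library left out. ERCC scaling gave the low ends of 4, 5 and 5, and against 30 min it ended the calls of NFE2L2, GCLC and NQO1. With no filter on low counts NQO1 was called from 10 to 30 min (-0.26, adjusted p 5.77e-04), making that count 1, and 1 of 840 early values over the alternatives passed. Without that filter NQO1 was also called at 240 against 0 min (0.13, adjusted p 0.0355) and SLC7A11 at 240 against 30 min (0.18, adjusted p 0.0176). The calls of SRXN1, OSGIN1, HMOX1 and TXNRD1 at 240 against 0 min held under every alternative run. Signs turned for values near 0. KEAP1 at 240 against 0 min was 0.025 with upper-quartile scaling, 0.035 with limma at each pseudocount and TPM minimum, and -0.028 to 0.020 with 1 library left out (0.0094 without 0 min replicate 1 and 0.020 without 240 min replicate 1). SLC7A11 was -0.081 with ERCC scaling and -0.12 to 0.21 with 1 library left out, the low end without 0 min replicate 2. With ERCC scaling NQO1 and TXNRD1 at 10 min were each -0.18, and SRXN1 from 10 to 30 min was 0.021. The number with an IR peak fell from 1 to 0 with peaks above the median score and with the HOMER nearest gene. The replicate block left 7 called at 240 against 0 min and 8 against 30 min. Same-numbered replicates of different times had correlated deviations of -0.36 to 0.32, over 0.1 in 5 of 10 pairs of times, so the numbers were not taken to pair samples. The cause of these changes was not tested. With limma on log2(TPM + 1), 2638 genes were called higher and 1579 lower at 240 min. In the glutathione list 4 rose and 2 fell with DESeq2, and 5 rose and 1 fell with limma. In the heme list 4 rose and 0 fell with DESeq2. Depth limits OSGIN1 and HMOX1 most, at 219 and 242 counts in their lowest libraries.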
